A study of Mus musculus with 6 samples.

Results

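Open chromatin inside very long genes was described from 2 lists of accessible intervals. A member was an autosomal interval whose best summit lay inside a protein-coding gene of at least 300 kb and more than 2.5 kb from any gene end. The FM list held 14362 such intervals, 7.02% of its 204650 autosomal intervals, and the KO list held 8396, 6.08% of its 138130. The rule covers 533 of 20665 autosomal protein-coding genes (2.58%), 44 of which held no member, with 288 Mb of sequence away from gene ends.

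The assay was ATAC-seq, which uses the Tn5 transposase to place adapters in open DNA, on 6 libraries from mouse epiblast stem cells left to differentiate for 2 days as embryoid bodies in medium with serum. The induced group carried inducible Mixl1 and received doxycycline (1 µg/mL, 24 h), and the knockout group was Mixl1 knockout cells, with 3 libraries of 50000 cells and 11 PCR cycles in each. Both lines had been kept on irradiated fibroblast feeders with bFGF at 10 ng/mL and activin A at 20 ng/mL. The authors deposited 1 list for each group. The KO list carries the knockout's name, and the FM list is taken to hold the induced cells by elimination, because FM is explained in no label. Differences between the lists in Mixl1, in doxycycline and between the cell lines cannot be told apart, and with 1 list for a group there is no replicate error and no test between the lists. The labels do not say whether a line was 1 clone or whether the libraries of a group came from separate cultures. The files hold no read counts, so depth is unknown, and the intervals given with shares below are exact binomial (Clopper-Pearson) bounds at 95% that cover the counting of intervals only. An interval lay within 1 kb of a gene end at 4 of 5 epiblast markers in each list (Otx2 had none in either), at 3 of 3 primitive streak markers and at 4 of 4 feeder fibroblast markers, and the part of feeder cells in the results was not tested.

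Very long mammalian genes consist almost entirely of intron, and many encode adhesion molecules, guidance receptors, ion channels and synaptic scaffolds best known from neurons. Introns of long genes can hold enhancers and alternative promoters, so that open sites far from both gene ends are candidates for such elements. Mixl1 is a paired-type homeodomain factor of the primitive streak, and factors of this class bind paired TAAT sites.

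The letters of the intervals themselves were not used here, because no genome of the build was used. The starts annotated inside very long genes do have sequence, from the RefSeq promoter table of GRCm38.p6, and they are shown as examples of internal starts under strong shared intervals, under list-only intervals and under none. Each stretch is the 250 bases before the start, 5′ to 3′ on the gene's strand, with CG dinucleotides in capitals. The first 3 are the internal starts more than 100 kb from the gene's outer start with the highest −log10 q in FM that were covered in both lists. They belong to Cacna1d, a calcium channel subunit (chr14:30353487-30353736, minus strand), Palld, an actin-associated protein (chr8:61591140-61591389, minus strand), and Nav2, a neuron navigator protein (chr7:49245939-49246188, plus strand).
Cacna1d: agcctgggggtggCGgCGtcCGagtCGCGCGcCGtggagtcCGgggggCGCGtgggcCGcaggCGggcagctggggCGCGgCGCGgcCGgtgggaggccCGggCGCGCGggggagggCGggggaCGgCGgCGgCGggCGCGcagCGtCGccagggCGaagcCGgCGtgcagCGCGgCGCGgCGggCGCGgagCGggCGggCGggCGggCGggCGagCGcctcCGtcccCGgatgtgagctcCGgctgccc
Palld: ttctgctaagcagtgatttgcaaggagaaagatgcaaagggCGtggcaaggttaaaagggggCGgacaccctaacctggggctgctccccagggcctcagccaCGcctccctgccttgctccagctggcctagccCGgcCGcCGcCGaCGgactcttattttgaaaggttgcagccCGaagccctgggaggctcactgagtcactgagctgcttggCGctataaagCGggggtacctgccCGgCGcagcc
Nav2: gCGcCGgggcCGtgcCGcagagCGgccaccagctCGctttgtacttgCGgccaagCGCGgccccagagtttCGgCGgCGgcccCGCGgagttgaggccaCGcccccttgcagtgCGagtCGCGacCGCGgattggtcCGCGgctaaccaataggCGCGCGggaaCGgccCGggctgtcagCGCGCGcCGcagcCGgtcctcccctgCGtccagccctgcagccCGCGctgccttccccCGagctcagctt
The next 2 were covered by an FM-only interval, in Kalrn, a guanine nucleotide exchange factor (chr16:34514028-34514277, minus strand), and in Sgcd, a sarcoglycan of the muscle membrane (chr11:47379326-47379575, minus strand).
Kalrn: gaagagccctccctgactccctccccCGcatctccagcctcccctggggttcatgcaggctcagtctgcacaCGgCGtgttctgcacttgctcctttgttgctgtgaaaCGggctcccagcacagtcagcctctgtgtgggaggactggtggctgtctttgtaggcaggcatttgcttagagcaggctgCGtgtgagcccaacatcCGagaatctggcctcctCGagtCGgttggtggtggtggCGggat
Sgcd: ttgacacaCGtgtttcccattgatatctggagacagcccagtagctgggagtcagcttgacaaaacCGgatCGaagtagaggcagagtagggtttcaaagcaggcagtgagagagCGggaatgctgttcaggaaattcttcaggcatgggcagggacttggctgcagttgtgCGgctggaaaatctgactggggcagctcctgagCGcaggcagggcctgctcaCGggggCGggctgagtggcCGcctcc
The next 2 were covered by a KO-only interval, in Hdac9, a histone deacetylase (chr12:34528890-34529139, minus strand), and in Fhit, whose human counterpart spans a fragile site (chr14:10453459-10453708, minus strand).
Hdac9: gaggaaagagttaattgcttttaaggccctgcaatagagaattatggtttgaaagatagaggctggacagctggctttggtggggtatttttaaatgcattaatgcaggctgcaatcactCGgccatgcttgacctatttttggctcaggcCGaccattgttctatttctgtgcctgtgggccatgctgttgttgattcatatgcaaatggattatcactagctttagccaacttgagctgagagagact
Fhit: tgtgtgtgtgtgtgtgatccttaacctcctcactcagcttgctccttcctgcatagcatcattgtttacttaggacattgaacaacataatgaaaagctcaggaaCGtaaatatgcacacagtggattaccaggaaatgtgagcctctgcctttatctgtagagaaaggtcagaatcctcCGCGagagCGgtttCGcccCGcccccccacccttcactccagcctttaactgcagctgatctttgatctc
The last 2 were covered in neither list and belong to genes with no interval at all. They are Dpp10 (chr1:124045560-124045809, minus strand) and Kcnip4 (chr5:48599683-48599932, minus strand), which both encode auxiliary proteins of potassium channels.
Dpp10: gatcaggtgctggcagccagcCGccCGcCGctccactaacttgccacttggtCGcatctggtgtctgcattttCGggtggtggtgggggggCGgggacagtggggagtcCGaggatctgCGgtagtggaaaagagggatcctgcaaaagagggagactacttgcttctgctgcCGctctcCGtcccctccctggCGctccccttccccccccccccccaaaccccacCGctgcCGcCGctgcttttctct
Kcnip4: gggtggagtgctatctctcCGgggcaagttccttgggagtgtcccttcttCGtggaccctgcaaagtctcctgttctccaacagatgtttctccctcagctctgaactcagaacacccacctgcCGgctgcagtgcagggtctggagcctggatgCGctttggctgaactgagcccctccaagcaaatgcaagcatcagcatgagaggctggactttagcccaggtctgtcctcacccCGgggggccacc
The 3 stretches covered in both lists held 50, 13 and 36 CG dinucleotides, in the order Cacna1d, Palld, Nav2. Kalrn and Sgcd held 9 each, Hdac9 held 2, Fhit 6, Dpp10 14 and Kcnip4 5, so that Dpp10, covered in neither list, held more than Palld, covered in both. The interval at the Cacna1d start had a fold enrichment of 3.37 and a −log10 q of 110 in FM, against 3.02 and 19.6 in KO. That at the Nav2 start had 3.82 and 72.0 in FM, against 4.98 and 110 in KO. The KO-only interval at Hdac9 had 3.82 and 29.8 and lay 0.179 kb from an FM interval, and the FM-only interval at Kalrn had 2.16 and 8.07. Fold enrichment and −log10 q are the peak caller's own values within a list. These stretches were chosen after the values were seen.

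Members were thinly spread, and more of them belonged to 1 list than elsewhere in genes. Of the 14362 FM members, 8864 overlapped no KO interval (FM-only), a share of 61.7% (60.9% to 62.5%), against a background of 55.5% over all autosomal FM intervals away from gene ends. Of the 8396 KO members, 2930 overlapped no FM interval (KO-only), 34.9% (33.9% to 35.9%), against a background of 31.6%. The remaining 5498 FM and 5466 KO members were shared, by an overlap of at least 1 bp. In genes of 100 to 300 kb the FM-only share was 57.0% and the KO-only share 30.7%. In genes under 100 kb they were 54.0% and 27.6%. Outside protein-coding genes the FM-only share was 54.5% and the KO-only share 34.03%, which is within 1 percentage point of the KO-only share in very long genes.

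Both list-only shares were higher in very long genes than in genes under 100 kb on 19 of 19 autosomes. Against genes of 100 to 300 kb the FM-only share was higher on 18 of 19, with chromosome 3 as the exception, and the KO-only share on 17 of 19, with chromosomes 11 and 17 as exceptions. The difference from genes under 100 kb was 7.69 percentage points for FM-only and 7.28 for KO-only. When intervals under a −log10 q of 10 were dropped from both lists, the FM-only difference was -0.43 points (-2.77 to 1.91) and the KO-only difference 10.5. With the 50000 strongest intervals of each list they were -0.64 and 10.2 points.

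The balance between the lists was alike in the 3 classes of gene length. FM-only intervals made up 75.2% (74.4% to 75.9%) of the list-only members in very long genes. The same share was 75.1% in genes of 100 to 300 kb, 75.5% in genes under 100 kb and 70.0% outside protein-coding genes. It changed with the intervals kept. With FM limited to as many intervals as KO, by strength, the share in very long genes was 53.0%, with the 50000 strongest of each list it was 45.6%, and without intervals under a −log10 q of 10 in either list it was 59.3%. List length and strength change together in each of these settings and were not told apart.

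Density was lower in longer genes in both lists. Very long genes held 4.99 FM intervals per 100 kb of eligible sequence (sequence over 2.5 kb from gene ends), against 11.6 in genes of 100 to 300 kb and 14.7 in genes under 100 kb. They held 2.92 KO intervals per 100 kb, against 7.12 and 9.34. The shorter classes were thus 2.32 and 2.94 times as dense in FM and 2.44 and 3.20 times as dense in KO. The same order held within very long genes. Genes of 300 to 500 kb (317 genes) had 9.26 intervals per 100 kb with shared ones counted once, those of 500 kb to 1 Mb (161 genes) 5.16, and those of 1 Mb and over (55 genes) 1.95. The FM-only share of list-only intervals was 75.2%, 75.9% and 71.4% in these classes. Members resembled intervals in shorter genes in size: the median width was 316 bases in FM and 321 in KO, against 334 in FM and 327 in KO for genes under 100 kb.

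**Figure D1:**
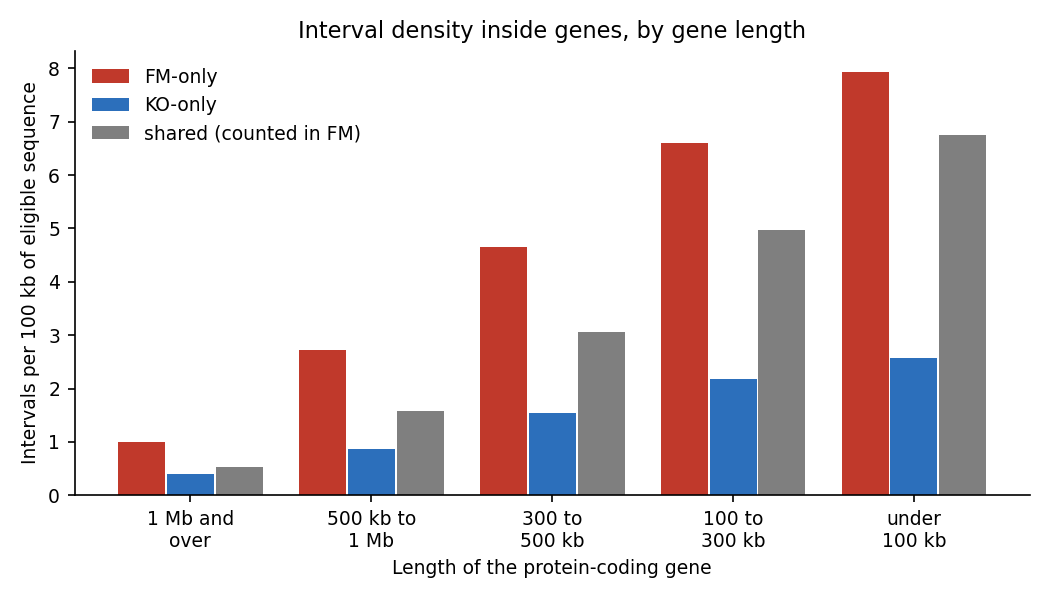
Intervals per 100 kb of eligible sequence (y axis) in protein-coding genes of 5 length classes (x axis), with bars for FM-only, KO-only and shared intervals, shared ones counted in FM. All 3 kinds are least dense in genes of 1 Mb and over (1.01 FM-only, 0.403 KO-only and 0.537 shared per 100 kb).

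The weak intervals carried most of the list-only members. Column 9 of the lists holds −log10 of the q-value, so 1.30 is the lowest value in either list. In very long genes the FM-only share was 81.0% below 2, 75.5% from 2 to 5, 58.6% from 5 to 10, 26.2% from 10 to 20 and 2.95% from 20 to 50. None of 91 FM members of 50 or more was FM-only, which allows a share of up to 3.97%. The KO-only share was 46.3%, 44.0%, 32.5%, 21.2% and 10.9% in the same bins and 1.81% (3 of 166) at 50 or more. Very long genes had a higher FM-only share than genes under 100 kb in each bin below 50 and a higher KO-only share in each of the 6 bins. The binomial bounds of these 2 classes did not overlap in the 3 bins from 2 to 20 in either list. From 5 to 10 the FM-only share was 58.6% in very long genes and 52.6% in genes under 100 kb, and the KO-only share was 32.5% and 24.3%. When the bins were weighted alike in all classes, the FM-only share was 59.7% in very long genes, against 56.3% and 54.7% in the shorter classes. The KO-only share was 34.5%, against 30.2% and 27.3%. Outside protein-coding genes the shares weighted in this way were 54.8% FM-only and 34.6% KO-only. The higher KO-only share was thus not particular to very long genes.

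**Figure D2:**
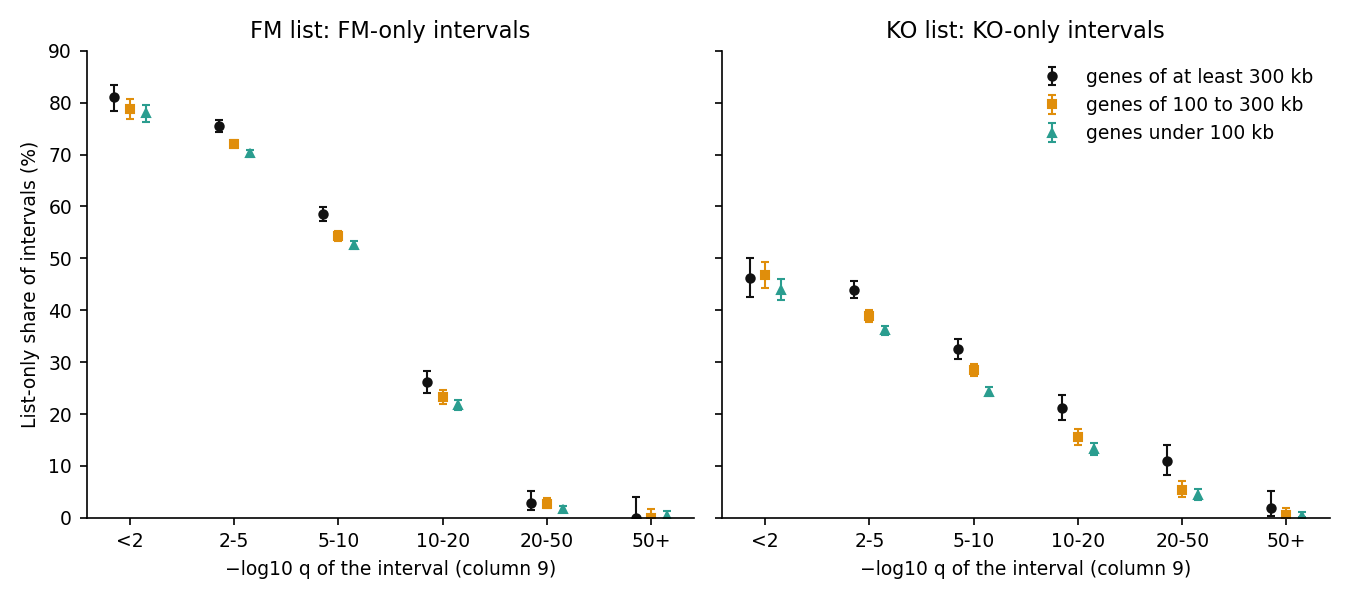
Share of FM intervals that are FM-only (left) and of KO intervals that are KO-only (right) by bin of −log10 q, in genes of at least 300 kb, of 100 to 300 kb and under 100 kb, with exact 95% binomial bounds that cover counting of intervals only. In the bin of 20 to 50 the KO-only share is 10.9% in the longest genes, 5.42% in the middle class and 4.34% in genes under 100 kb, while the FM-only share is 2.95%, 2.72% and 1.64%. Outside protein-coding genes, not drawn, the shares in this bin are 10.2% (KO-only) and 2.03% (FM-only).

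At the strong end list-only members were more often KO-only. A given −log10 q need not stand for the same signal in both lists. At a −log10 q of 20 or more, 12 of 498 FM members (2.41%) were FM-only and 58 of 671 KO members (8.64%, 6.63% to 11.0%) were KO-only, against backgrounds of 1.82% and 6.14%. The KO-only share at this strength was 4.11% in genes of 100 to 300 kb, 3.01% in genes under 100 kb and 8.39% outside protein-coding genes. At 10 or more, 449 FM members (20.7%) and 292 KO members (16.4%) were list-only, against 17.2% and 13.1%. The 12 strong FM-only intervals lay in 12 genes and the 58 strong KO-only ones in 54.

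Some strong KO-only members stood far from any FM interval. Of the 58, 16 (27.6%) were more than 50 kb from the nearest FM interval, in 14 genes, against 3 of 56 in genes of 100 to 300 kb and 0 of 71 in genes under 100 kb. They included both strong KO-only sites of Cdh18, a cadherin, at 159 and 68.2 kb. Sgcz, a sarcoglycan, had one at 312 kb and Rbfox1, a splicing regulator, one at 153 kb. None of the 12 strong FM-only members was that far from a KO interval. At a −log10 q of 10 or more, 43 of 292 KO-only (14.7%) and 18 of 449 FM-only members (4.01%) were. At any strength these were 193 of 2930 KO-only (6.59%) and 470 of 8864 FM-only members (5.30%). FM intervals were 2.32 and 2.94 times as dense in the shorter classes, and the distances were not adjusted for density. At the other end, 21 of the 58 lay within 1 kb of an FM interval, as did 4 of the 12 FM-only members, so that part of the strong list-only sites sit beside an interval of the other list. Over members of any strength the median distance to the other list was 4.65 kb for FM-only and 2.21 kb for KO-only.

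The strongest list-only interval of all was KO-only. It lay inside Pcca, a subunit of propionyl-CoA carboxylase, at chr14:122568868-122569218 (mm10), 84.7 kb from the gene's start, with a fold enrichment of 9.82 and a −log10 q of 178. An exon map was not used here, so exons and introns are not told apart for any member. Its nearest FM interval was 34.1 kb away. The next were 2 KO-only intervals with −log10 q of 67.4 in Snx29, a sorting nexin (chr16:11490516-11491257), and 50.5 in Cpa6, a carboxypeptidase (chr1:10603433-10603952). Zfp423, a zinc finger factor, had 49.96 at a site 0.226 kb from an FM interval. Fhod3, a formin, had 42.2 at 0.940 kb, and Nell2, a secreted neural protein, had 40.4 at 57.6 kb. The strongest FM-only interval lay in Plxna4, a plexin receptor for semaphorins, at chr6:32377084-32377890, with a fold of 3.39 and a −log10 q of 27.5. It was 48.2 kb from the nearest KO interval. The FM-only sites of Dab1, an adaptor of reelin signalling, Mast4, a kinase, Camta1, a calmodulin-binding transcription activator, Cntnap2, a cell adhesion molecule, and Btbd9, a BTB-domain protein, followed at 25.6, 22.1, 21.8, 21.1 and 21.0.

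The strongest members of all were shared. Their fold enrichments are set over each list's own background and are given side by side without a comparison. In Cmss1 (chr16:57391177-57391776 in FM) the fold was 33.6 in FM and 37.3 in KO. Sites in Camk1d, a calcium/calmodulin-dependent kinase, and Gphn, the inhibitory synapse scaffold gephyrin, had 22.2 and 21.6 in FM, against 28.3 and 25.8 in KO. The site in Cntnap5b had 16.2 in FM and 29.6 in KO. Dlgap2, a postsynaptic scaffold, had 15.8 in FM and 14.7 in KO, and Tiam1, an activator of Rac, had 12.8 in FM and 12.3 in KO. None of these 6 lay over an annotated internal start, but Dlgap2 has no strand in the promoter table, so a start there could not be found. Regions prone to false signal were not filtered here.

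Genes differed far more from each other than the classes did. The median very long gene held 16 intervals, or 3.48 per 100 kb, with quartiles of 0.632 and 11.9. The 83 fullest genes, 15.6% of the 533, held at least 50% of the intervals, while 44 genes had none in either list. FM-only intervals outnumbered KO-only ones in 351 genes (65.9%), KO-only intervals were more in 101 (18.9%), and 81 were equal.

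The fullest gene was Ptprn2, a phosphatase-like protein of secretory vesicles, with 106 FM-only, 27 KO-only and 83 shared intervals over 792 kb. Camta1 had 111 FM-only, 22 KO-only and 76 shared, and Cdh13, a membrane-anchored cadherin, had 111, 31 and 41 over a longer span of 1185 kb. Cdh4, another cadherin, had 69 FM-only and 23 KO-only intervals, Rgs6, a regulator of G-protein signalling, 70 and 28, and Slit3, a ligand of Robo receptors, 78 and 17. Nav2 had 74 FM-only and 18 KO-only intervals, Rad51b, a recombination protein, 59 and 19, Kalrn 87 and 9, and Csmd2, a CUB and sushi domain protein, 72 and 22. In all 10 of these genes FM-only intervals were the more numerous in the lists as deposited, where 75.1% of list-only intervals over all very long genes were FM-only. The share was 71.4% in Rgs6, 75% in Cdh4 and 75.6% in Rad51b. It was under 50% in Cdh4, Csmd2 and Rgs6 with FM limited to the number of KO intervals, and in Cdh13 and Nav2 with the 50000 strongest intervals of each list. The binomial bounds included 50% in each of these cases.

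Per 100 kb the leaders were partly others. Btbd9 had 37.6 intervals per 100 kb, Foxn3, a forkhead repressor, 36.5, Cdh4 35.7, and Msi2, an RNA-binding Musashi protein, 34.7. Gse1, a chromatin complex component, had 33.2 and Arid1b, a subunit of the BAF chromatin remodeller, 32.5. At the other extreme 6 genes of 949 to 1483 kb eligible length held no interval in either list. They were Dpp10, Kcnip4, the netrin receptor Dcc, the ErbB4 ligand Nrg3, the ephrin receptor Epha6 and the adhesion molecule Cadm2. Dcc had an FM interval within 1 kb of an end and Nrg3 and Cadm2 one in each list, while Dpp10, Kcnip4 and Epha6 had none at either end.

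The genes with the largest surplus of FM-only intervals were Camta1, Cdh13, Ptprn2, Kalrn, Tenm4, Wwox, Asic2 and Plxna4. Plxna4 had 67 FM-only against 2 KO-only intervals with 10 shared, so that 97.1% (89.9% to 99.6%) of its list-only sites were in FM. Tenm4, a teneurin adhesion receptor, had 81 FM-only and 5 KO-only intervals. Wwox, an oxidoreductase gene at a fragile site in humans, had 86 and 15, and Asic2, an acid-sensing ion channel, 78 and 12. The surplus depended on strength in some of these. Once intervals under a −log10 q of 10 were dropped from both lists, the FM-only share of list-only intervals in Cdh13 was 35.7%, against 78.2% in the whole lists. That share rests on 5 FM-only and 9 KO-only intervals, with bounds of 12.8% to 64.9%.

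The largest surplus of KO-only intervals was in Rims2, which encodes an active zone protein. It had 1 FM-only and 35 KO-only intervals with 5 shared, and 7 of the KO-only ones reached a −log10 q of 10. Tmem117, a membrane protein, had 2 FM-only and 26 KO-only intervals, Gphn 4 and 24, Vps13b, a lipid transfer protein, 3 and 23, and Piezo2, a mechanosensitive channel, 6 and 21. Rabgap1l, a Rab GTPase-activating protein, had 0 and 15, and Slc2a13, a myo-inositol transporter, 1 and 14. Rims2, Tmem117, Vps13b and Slc2a13 are on chromosome 15, Gphn on 12 and Piezo2 on 18, so that 6 of the 7 genes named here lie on 3 chromosomes.

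On chromosomes 12, 15 and 18, 33 of 68 very long genes (48.5%) had more KO-only than FM-only intervals, against 68 of 465 (14.6%) on the other autosomes. These 3 chromosomes were singled out with earlier results of these data known, so the contrast is a description only. On chromosome 15 very long genes held 186 FM-only and 275 KO-only intervals, an FM-only share of 40.3%, and genes under 100 kb there had a share of 58.2%, against 75.5% genome-wide. In genes of 100 to 300 kb on chromosome 15 the share was 50.2%. The FM-only share of list-only members was 60.2% on chromosome 18 and 67.4% (64.3% to 70.4%) on chromosome 12, close to the 68.4% (64.6% to 72.2%) of chromosome 1. In genes of 100 to 300 kb and under 100 kb it was 59.8% and 62.0% on chromosome 18. On chromosome 12 it was 66.7% in both of these classes. The low shares on 12 and 18 were thus not particular to very long genes. Without these 3 chromosomes the share over all very long genes was 78.3%.

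**Figure D3:**
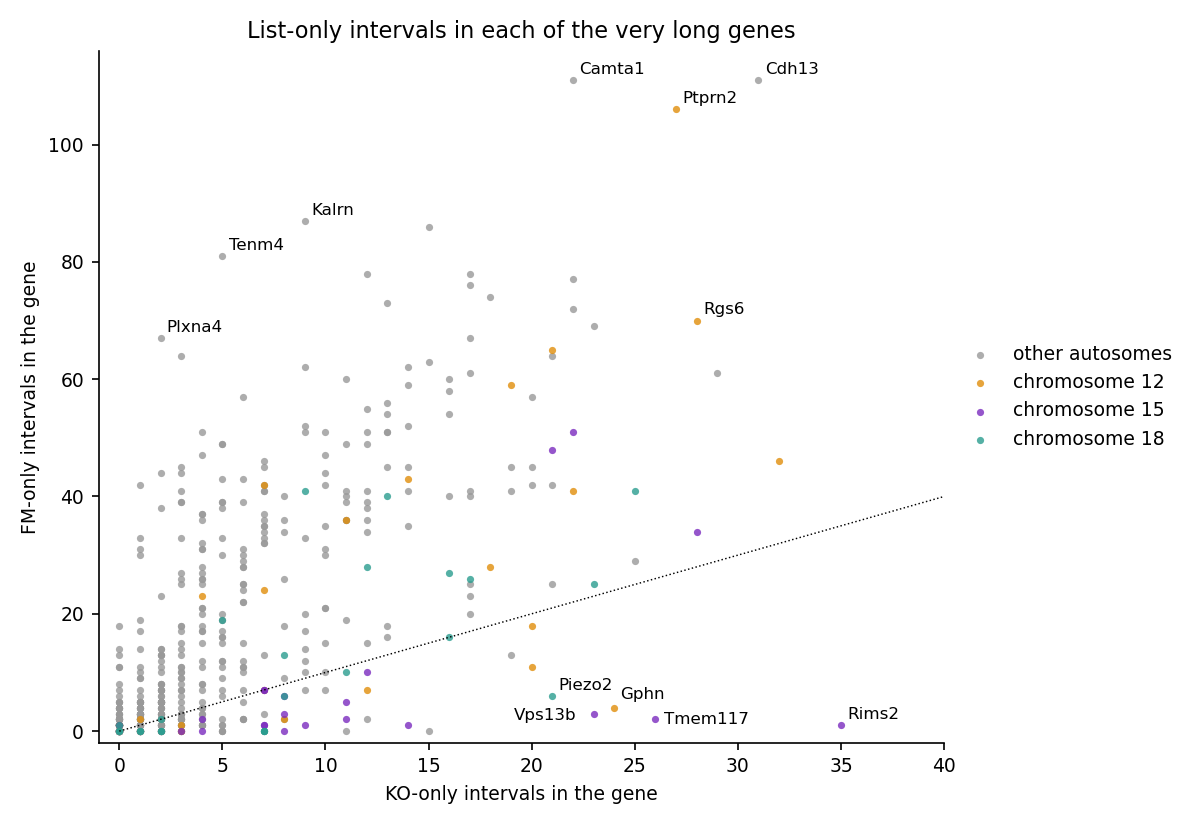
FM-only (y axis) against KO-only intervals (x axis) in each of the 533 very long genes, with chromosomes 12, 15 and 18 coloured and the dotted line marking equal numbers. Most genes lie above the line, and Rims2 (1 FM-only, 35 KO-only), Tmem117, Vps13b, Gphn and Piezo2 lie far below it on the coloured chromosomes.

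**Figure D4:**
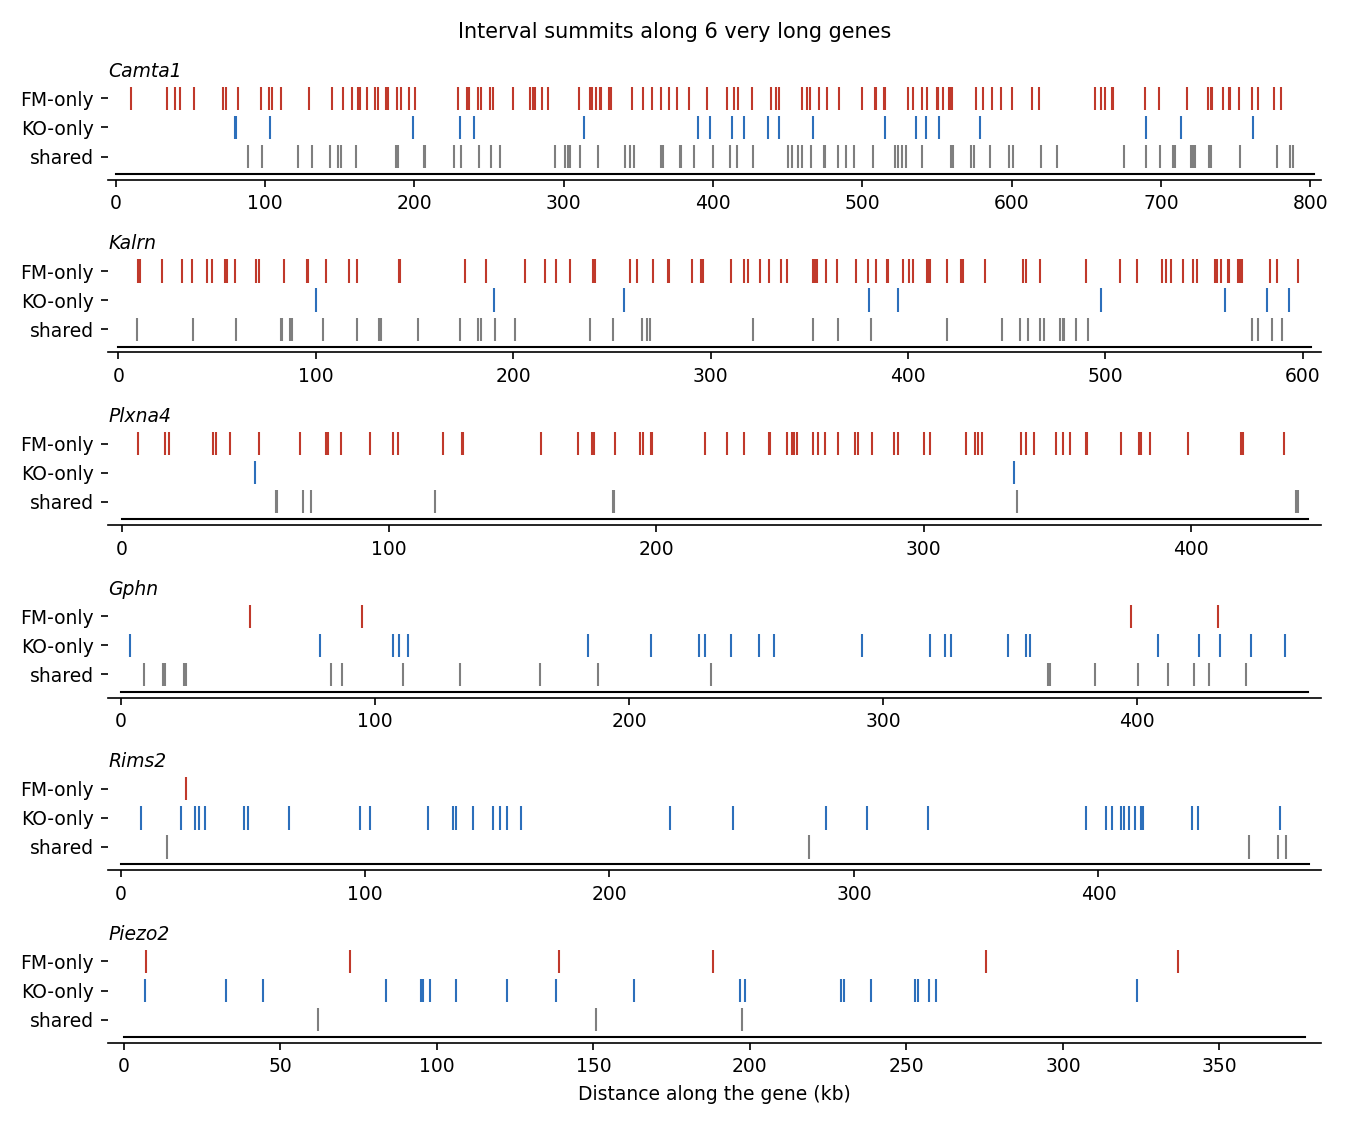
Summits of FM-only, KO-only and shared intervals along 6 very long genes (x axis in kb, from the annotated 5′ start for Camta1, Kalrn and Gphn and from the end of lower coordinate for Plxna4, Rims2 and Piezo2). The 67 FM-only intervals of Plxna4 and the 35 KO-only intervals of Rims2 are spread over the length of the gene rather than gathered at 1 site.

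The surplus of FM-only intervals was smaller in genes with little shared open chromatin. In the 105 genes without a shared interval, 60 list-only intervals were FM-only and 83 KO-only, an FM-only share of 42.0% (33.8% to 50.5%). The share was 62.8% in the 160 genes with 1 to 4 shared intervals, 73.7% with 5 to 14, 78.5% with 15 to 34 and 76.9% with 35 and over. Without chromosomes 12, 15 and 18 these shares were 49.6%, 69.6%, 78.5%, 80.6% and 78.7%. The grouping was chosen after the data were seen, and the shared count uses both lists, so this is a description only.

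By function, 303 of the 533 genes were in 1 of 10 lists. The lists hold misplacements: Asic2 is in none of them, although it is an ion channel, and Csmd2, a transmembrane protein with 135 intervals, is in the secreted and matrix list. Genes of transcription factors and chromatin regulators (48 genes) were the densest, with 11.5 intervals per 100 kb against 5.996 over all very long genes. In 41 of the 48 FM-only intervals outnumbered KO-only ones, against 351 of all 533 (65.9%). These 48 genes had 22.4 Mb of eligible sequence, against 45.5 Mb in 53 adhesion genes and 19.7 Mb in 27 secreted and matrix genes. The 46 ion channel and receptor genes had 24.6 Mb and 4.80 intervals per 100 kb. The 22 cytoskeleton and muscle membrane genes had 9.90 Mb and 7.93 per 100 kb. Density fell with gene length above, and function and length were not told apart. Npas3, a neural transcription factor, had 65 FM-only and 21 KO-only intervals, and Arid1b 41 and 17. Secreted signals and matrix genes (27) had the lowest density, 2.81, with Spock1, a proteoglycan, at 55 and 12 and Ltbp1, which binds latent TGF-beta, at 20 and 17. Cell adhesion genes (53) had 3.96 per 100 kb, and in 14 of them KO-only intervals were the more numerous, against 101 of all 533 (18.9%). Sdk1, an immunoglobulin adhesion molecule, had 77 FM-only and 22 KO-only intervals.

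Axon guidance genes (20) had the highest FM-only share of list-only intervals, 85.1% (81.4% to 88.3%) against 75.1% over all genes. In 11 of these genes FM-only and in 1 KO-only intervals were the more numerous, and 8 were equal, 4 of them without an interval. FM-only intervals were the more numerous in 65.9% of all very long genes. A few genes held most of the list's 365 FM-only intervals, with 78 in Slit3, 74 in Nav2 and 67 in Plxna4. Ephb1, an ephrin receptor, had 49 FM-only and 5 KO-only intervals. Ion channel and receptor genes (46) followed at 79.9%, with Cacna1c, a calcium channel subunit, at 76 and 17, Grik4, a kainate receptor, at 51 and 13, and Gabbr2, a GABA-B receptor, at 40 and 8. The lowest shares were 68.7% in synaptic scaffold and vesicle release genes (20) and 69.6% in metabolism, genome maintenance and fragile-site genes (19). Rims2 and Gphn belong to the scaffold list, and without chromosomes 12, 15 and 18 the scaffold share was 73.8%. Shank2, a postsynaptic scaffold, had 57 FM-only and 20 KO-only intervals, and Magi1, a junctional scaffold, 35 and 14.

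Kinases, phosphodiesterases and small GTPase regulators (42 genes) had a share of 77.7%, with Prkce, a protein kinase C, at 61 FM-only and 29 KO-only, and Pde10a, a phosphodiesterase, at 42 and 21. Cytoskeleton and muscle membrane genes (22) had 77.2%, with Dst, the linker protein dystonin, at 36 and 12 and Frmd4a, a scaffold of the FERM family, at 51 and 13. RNA-binding proteins (6) had 78.9%. Among them Rbms3 had 41 FM-only and 3 KO-only intervals while Rbfox1 had 2 and 12. With the 50000 strongest intervals of each list the FM-only share was under 50% in 6 of the 10 lists. Among these the bounds excluded 50% only for the adhesion and synaptic scaffold lists.

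**Figure D5:**
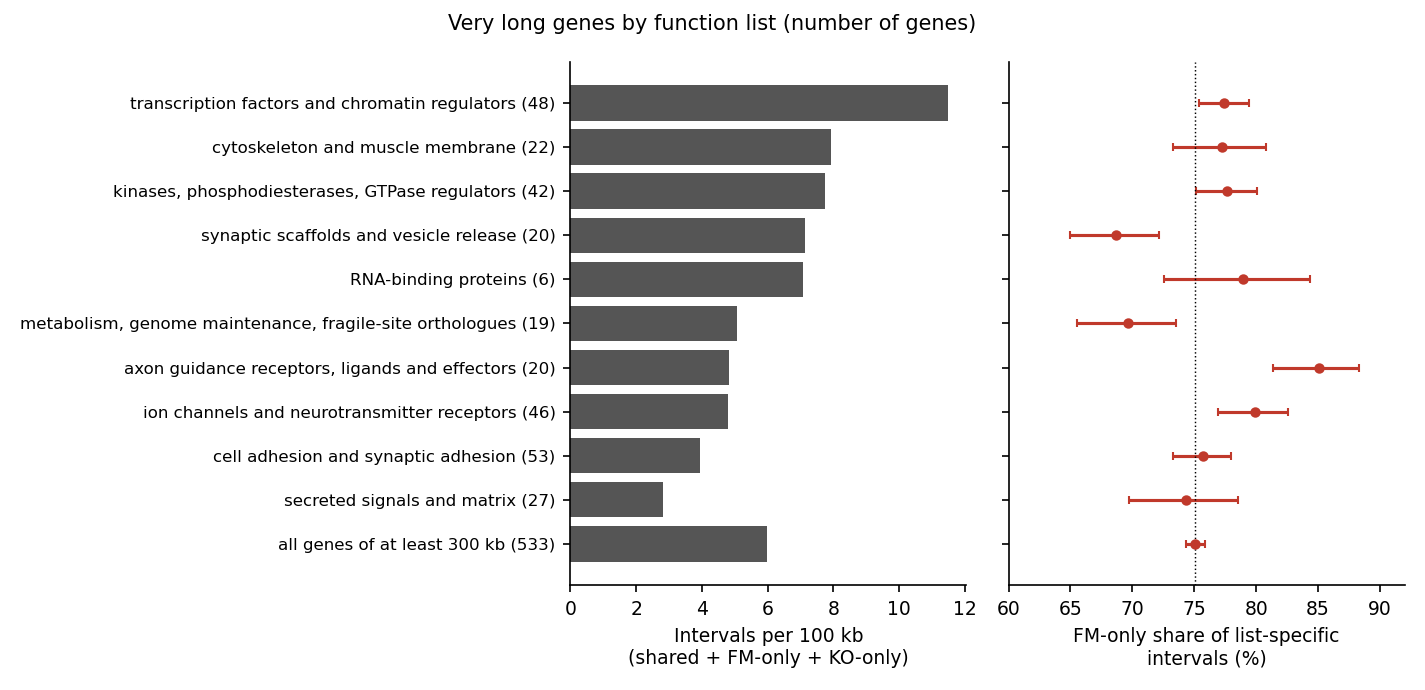
Intervals per 100 kb (left, shared, FM-only and KO-only together) and FM-only share of list-only intervals (right, with exact 95% binomial bounds for counting of intervals) in 10 function lists and in all very long genes, with the number of genes in brackets and the dotted line at the share of all genes, 75.1%. Transcription factor and chromatin genes are densest (11.5) and axon guidance genes have the highest FM-only share (85.1%). Gene length was not matched between the lists.

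Members were denser toward the 3′ end. In the 405 genes whose strand the promoter table gives, shared intervals had 1.85 per 100 kb in the first 10% of the gene's length, 1.53 from 40% to 50% and 2.94 in the last 10%. FM-only intervals had 2.95, 2.76 and 4.15 and KO-only intervals 1.09, 0.776 and 1.24. The FM-only share of list-only intervals stayed between 73.1% and 78.6% over 10 such stretches.

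Members lie more than 2.5 kb from gene ends by rule, so promoters at gene ends were left out. Only 216 internal starts were annotated, against 14362 FM members, so a low share of members over a start was set in advance. Of 216 annotated starts inside these genes, 89 (41.2%) were overlapped in both lists, 11 in FM only, 10 in KO only and 106 in neither, over a window from 250 bases before to 50 after the start. Some of the starts in KO only, in Pde1c and Myt1l, lay under KO intervals that overlap an FM interval outside the window. Of 389 starts at gene ends, 288 (74.0%) were overlapped in both. Of shared FM members 1.49% lay over an internal start and of FM-only members 0.124%, against 15.4% of the FM members with a −log10 q of 50 or more. For KO these were 1.52% of shared, 0.239% of KO-only and 12.7% of the strongest members. These shares are over the members of all 533 genes, but internal starts were listed only in genes whose strand the promoter table gives (405). Members of the other genes could not count as lying over a start. The median number of CG dinucleotides in the 250 bases was 11 at internal starts overlapped in both lists, 3 in FM only, 5.5 in KO only and 3 in neither, against 6 over all 32851 promoters of the table. The GC box GGGCGG, searched on both strands and itself holding a CG, was in 49 of the 89 (55.1%) and in 4 of the 106 (3.77%), against 32.7% of all promoters. The paired homeodomain site, TAAT and ATTA with 3 bases of any kind between them, the same on both strands and sharing no letters with the GC box, was in 0 of the 89 and 1 of the 106, against 0.463% of all promoters.

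The 273 genes whose start was overlapped in both lists had a median of 4.05 members per 100 kb (quartiles 1.04 and 13.8), and the 52 genes whose start was overlapped in neither had 0.776 (0.192 and 3.21). The 14 genes whose start was overlapped in FM only had 0.449 (0 and 7.91), and the 6 overlapped in KO only had 2.11 (0.0583 and 5.95). The quartile ranges of all 4 groups overlap. These groups do not cover all of the 533 very long genes, nor all of the 405 whose strand the promoter table gives. FM-only intervals were 77.1% of list-only members in the 273 genes and 74.0% in the 52.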

How the data were processed

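The build was mm10, and bcl2fastq, Bowtie2, SAMtools and MACS2 were used, per the submitters' processing notes, which name no versions. The pooling of the 3 libraries in a group and any shift of reads to the Tn5 insertion site are steps not given in the sources used here. Deposited by the authors was 1 narrowPeak list for each group, with a fold enrichment over background (a ratio), −log10 of the p-value, −log10 of the q-value and a score for each summit. The lists hold 279817 (FM) and 191107 (KO) rows, all with a q of at most 0.05. Depth is unknown, since the deposited files give no counts.

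Rows with the same start and end were collapsed to the summit of lowest p-value. Genes and their ends, coding or not, came from the RefSeq table of GRCm38.p6 (47042 autosomal genes), which is the assembly that mm10 names. An interval belonged to the longest protein-coding gene around its summit. Intervals in 9 very long genes that overlap another were counted in each gene and once in totals. Strand and annotated starts came from the RefSeq promoter table. Shared means an overlap of at least 1 bp. Shares carry exact binomial bounds, and no test was made, because each group has 1 list. The functions were tested on simulated intervals with Python 3.11.15, pandas 2.3.3 and scipy 1.17.1.

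Named genes were the 10 with most intervals, the 6 with most and 6 with fewest per 100 kb (at least 200 kb eligible), the 8 with the largest and 8 with the smallest FM-only minus KO-only count, and up to 4 of each function list by intervals, of which some are printed. A few genes are not reported here. Single intervals were the 6 strongest shared, FM-only and KO-only ones by −log10 q. The members, rules and gene lists were chosen with earlier results of these data known. The sequences shown, the grouping by shared intervals, the distances to the other list and the differences from genes under 100 kb were chosen after seeing the data. Alternatives were minimum −log10 q values, equal list lengths, a 50% overlap, other gene lengths and distances from gene ends, and leaving out chromosomes 12, 15 and 18.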

Additional observations from a re-analysis of the deposited data

Results flagged for a closer look

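Chromosome X lies outside the autosomal comparison and held members of the same kind. Its 24 protein-coding genes of at least 300 kb, with 14.4 Mb of eligible sequence, contained 27 FM intervals and 18 KO intervals. Of the FM intervals 16 were shared and 11 FM-only, and 1 KO interval was KO-only. The density was 0.187 intervals per 100 kb in FM and 0.125 in KO, against 4.99 in FM and 2.92 in KO for autosomal very long genes. The ratio of KO to FM intervals was 0.667 on X and 0.585 on the autosomes. The difference between X and the autosomes was not tested.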

How the results depend on the processing

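No paired analysis was possible because each deposited list stands for a whole group and carries no replicate. For the same reason no library could be left out. The values below are, in order, the FM-only share of FM members, the KO-only share of KO members, the FM-only share of list-only members, FM members per 100 kb, and the ratio of that density in very long genes over genes of 100 kb up to the length limit, with 61.7%, 34.9%, 75.2%, 4.99 and 0.431 in the lists as deposited. With a −log10 q of 5 or more in each list they were 64.1%, 40.7%, 72.5%, 2.49 and 0.408, and with at least 10 they were 55.3%, 46.3%, 59.3%, 0.752 and 0.384. With the 50000 strongest intervals of each list they were 48.4%, 52.9%, 45.6%, 0.769 and 0.382, and with FM limited to the number of KO intervals 52.0%, 48.7%, 53.0%, 3.08 and 0.417. In these settings a list-only interval can still overlap a weaker interval of the other deposited list, and fewer intervals enter by construction. An overlap of 50% of the shorter interval moved the first 2 to 63.2% and 37.2%. A gene length of at least 200 kb gave 60.3% and 33.3%, a density of 6.36 and a ratio of 0.529, and 500 kb gave 63.9%, 37.3%, 3.18 and 0.306. Ends more than 10 kb away gave a density of 4.71 and a ratio of 0.421, and ends of protein-coding genes alone a density of 5.14. Without chromosomes 12, 15 and 18 the shares were 63.2%, 32.4% and 78.3% and the density 4.78. The excess of the FM-only share over genes under 100 kb, 7.69 points as deposited, was 4.39 points with −log10 q of at least 5, -0.43 with at least 10, -0.64 with 50000 each, 6.26 at 200 kb and 9.87 at 500 kb. That of the KO-only share, 7.28 points, was 8.55, 10.5 and 10.2 in these 3 strength settings, 5.68 and 9.70 at the 2 lengths, 5.85 beyond 10 kb of ends and 5.74 without the 3 chromosomes. The FM-only share of list-only intervals crossed 50% in some genes and lists, and the cause was not tested. At −log10 q of at least 10 this gave 35.7% in Cdh13 (5 FM-only, 9 KO-only), 38.1% in Foxn3 (8 and 13) and 75% in Vps13b (3 and 1). In the synaptic scaffold list it gave 49.6% (56 and 57). With 50000 each it gave 42.9% in Arid1b, 40% in Asic2, 25% in Cdh13, 30.8% in Foxn3, 47.1% in Gse1 and 45.5% in Nav2, and in the lists 39.7% for adhesion, 38.0% for scaffolds, 48.1% for transcription factors, 48.2% for kinases, 44.0% for cytoskeleton and 47.0% for metabolism. With FM limited to the KO number it gave 49.3% in Cdh4, 49.2% in Csmd2, 36.7% in Foxn3 and 44.0% in Rgs6, and in the lists 47.7% for scaffolds, 47.0% for secreted signals and matrix and 48.5% for metabolism. The binomial bounds of each of these gene shares included 50%. Among these list shares only those of adhesion (33.8% to 45.8%) and scaffolds (29.8% to 46.6%) with 50000 each had bounds under 50%. A 50% overlap changed the direction of none of the 27 genes and 10 lists tried.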

Other observations

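The longest genes were close to empty in both lists. Ptprd, a receptor phosphatase gene of 2271 kb, held 0 FM-only, 1 KO-only and 0 shared intervals. Cntnap2 (2241 kb) held 1 FM-only, 5 KO-only and 6 shared intervals, Lsamp, an adhesion molecule gene of 2197 kb, held 3, 2 and 2, and Lrp1b, a lipoprotein receptor relative of 2058 kb, held 1, 1 and 1. These genes were chosen for their length after their values were seen. Of the 55 genes of at least 1 Mb, 4 had no interval. The longest stretch of a very long gene without an interval had a median of 140 kb over the 533 genes and a maximum of 1901 kb. Neighbouring intervals inside a gene lay a median of 4.58 kb apart in FM and 6.88 kb apart in KO.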
